A study of Mus musculus with 15 samples.

Results

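Myostatin and activin pathway genes were followed in the gastrocnemius of aged mice, as 10 genes chosen by name for their role in the pathway and matched by symbol to the Ensembl genes of the count table. They were the ligands Mstn, Gdf11 and Inhba, the secreted inhibitors Fst, Fstl1 and Fstl3, the receptors Acvr2a and Acvr2b, and the intracellular Smads Smad3 and Smad7. All 10 were found among 55450 counted genes, and all 10 were among the 16920 genes that had enough counts to be tested. RNA sequencing of polyA RNA was done on whole gastrocnemius from 15 female C57BL/6 mice (C57BL/6JN in the study's methods) older than 17 months, each library being 1 mouse. The robust control group (mice D8, D9, D11 and D98) and the frail control group (D23, D25 and D67) stayed sedentary in their cages. The robust 24h group (D57, D61, D66 and D68) and the frail 24h group (D49, D52, D53 and D62) completed 2 bouts of downhill treadmill running (22 degrees, 13 m/min) and were sampled 24 h later. Mice were sorted into robust and frail by body weight, a frailty index and tests of running, grip and balance, so that frail mice are the more affected mice of 1 ageing cohort and carry no engineered allele. The comparisons ask whether running, frailty or both together moved the expression of these genes.

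Myostatin is a growth factor of the TGF-beta family that muscle fibres secrete and that restrains muscle growth, and animals without it are heavily muscled. Myostatin, its close relative Gdf11 and the activins bind the type II receptors Acvr2a and Acvr2b, which recruit a type I receptor, which in turn phosphorylates Smad2 and Smad3. Follistatin and its relative Fstl3 bind these ligands outside the cell and block them, and Smad7 inhibits signalling inside the cell. Fstl1 shares the follistatin domain and is a secreted glycoprotein made largely by mesenchymal cells.

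No member was shown to differ between groups beyond the spread between mice. By edgeR's quasi-likelihood test, 0 of the 10 members were called at an FDR of 0.1 in any of the 5 comparisons, and neither was any other gene, so that the background share was 0% of 16920 genes each time. At an unadjusted p under 0.05, 1 member stood out in 1 comparison, Acvr2b in frail 24h against frail control mice, where 5.18% of all tested genes passed the same limit. The numbers were 0 of 10 members for robust 24h against robust control (13.4% of all genes), 0 for the interaction (7.93%), 0 for frail control against robust control (5.86%) and 0 for frail 24h against robust 24h (2.51%). Without 2 mice that stood apart (D9 and D62, described next), Acvr2b passed that limit in 3 comparisons, frail 24h against frail control (6.85% of genes), the interaction (4.42%) and frail against robust control (3.8%), and 0 other members did in any. DESeq2's Wald test and limma's voom with sample quality weights called 0 members in each comparison. Unlike edgeR's test, both called some other genes for running, and their numbers are given in the last section.

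The widest differences in these genes were between individual mice. In 2 mice, D9 of the robust control group and D62 of the frail 24h group, many genes stood apart, these members among them. On the first principal component, which held 27.9% of the variance, they lay at 90.3 and 58.1, and the other 13 mice lay between -27.8 and 19.7. Total counts per mouse ran from 19395125 to 30699216, and pairs of mice within a group differed by a chi-square of at least 15.7 per degree of freedom, where counting noise alone gives about 1. The muscle fibre markers were the most abundant of the 9 marker lists, with summed levels between 105200 and 168500 CPM, and no marker of any list was at 0 in all mice. Fold changes that these 2 mice moved by much are therefore also given without them. In bulk muscle, fewer cells of a type and less RNA per cell cannot be told apart.

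Mstn was the most abundant member. Levels between genes were compared per length, as normalised counts scaled to library size (CPM) per kilobase of exon, and Mstn averaged 31.4 ± 16.3 (SD, n = 15 mice). Smad3 followed at 13.8 ± 4.99, Fstl1 at 10.5 ± 2.92, Acvr2a at 6.16 ± 1.52 and Gdf11 at 4.89 ± 2.34. Below these came Smad7 at 3.57 ± 0.863, Fst at 1.71 ± 0.415, Fstl3 at 1.36 ± 0.269, Acvr2b at 1.04 ± 0.291 and Inhba at 0.551 ± 0.157. The order of neighbours held in most mice, with Mstn above Smad3 in 14 of 15 mice and Smad7 above Fst in 15 of 15. Acvr2a and Gdf11 could not be ordered, since Acvr2a was the higher in 8 of 15 mice, and Gdf11 exceeded Smad7 in 10 of 15. The type II receptor Acvr2a was thus several times as abundant per length as Acvr2b, and follistatin itself was among the lowest members.

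**Figure D1:**
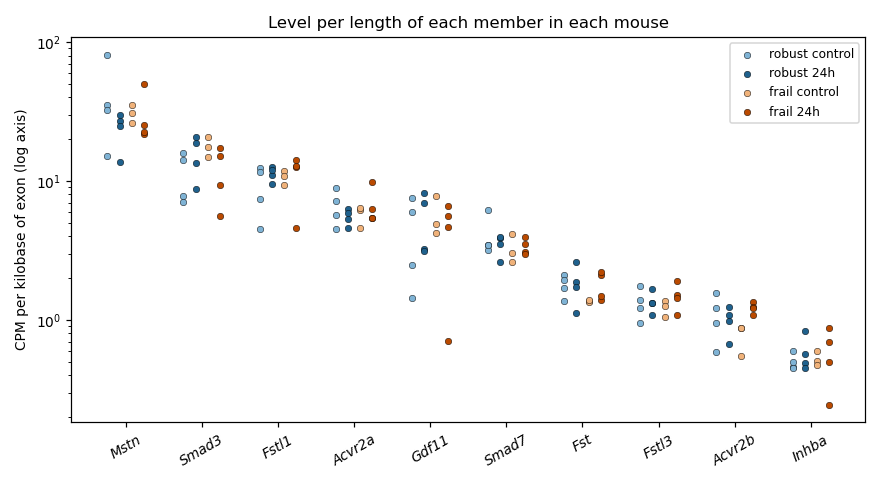
Level of each member in each mouse (CPM per kilobase of exon, log axis), members ordered by their mean over 15 mice and points coloured by group. Mstn averages 31.4 and Inhba 0.551, and for most genes the ranges of the 4 groups overlap, while Acvr2b of the frail 24h mice lies above that of the frail controls.

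The ligands are described first. Mstn (ENSMUSG00000026100, GRCm38 chr1:53061640-53068079, plus strand) and Gdf11 (ENSMUSG00000025352, chr10:128882295-128891718, minus strand) are paralogs that signal through the same receptors, yet they moved in opposite directions in mice D9 and D62, while Acvr2a moved with Mstn. The 250 bases before the annotated start of these 3 genes, from RefSeq (GRCm38.p6), are shown because these genes carry that contrast. Capitals mark the letters TATAAA (the sequence that TATA-binding protein recognises) and CAGAC (a core Smad-binding sequence) on either strand, and CANNTG (an E-box, which reads the same on both strands).
Mstn, chr1:53061390-53061639, plus strand: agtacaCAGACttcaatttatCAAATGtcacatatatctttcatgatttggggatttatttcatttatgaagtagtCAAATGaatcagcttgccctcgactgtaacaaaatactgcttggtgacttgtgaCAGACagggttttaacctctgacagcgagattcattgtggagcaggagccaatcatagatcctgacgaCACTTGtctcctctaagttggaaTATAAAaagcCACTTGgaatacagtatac
Gdf11, chr10:128891719-128891968, minus strand: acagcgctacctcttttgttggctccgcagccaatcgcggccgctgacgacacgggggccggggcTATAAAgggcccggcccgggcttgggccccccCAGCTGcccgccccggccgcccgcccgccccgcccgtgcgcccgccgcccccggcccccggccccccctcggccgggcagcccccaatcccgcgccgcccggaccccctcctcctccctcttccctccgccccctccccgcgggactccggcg
Acvr2a, chr2:48813859-48814108, plus strand: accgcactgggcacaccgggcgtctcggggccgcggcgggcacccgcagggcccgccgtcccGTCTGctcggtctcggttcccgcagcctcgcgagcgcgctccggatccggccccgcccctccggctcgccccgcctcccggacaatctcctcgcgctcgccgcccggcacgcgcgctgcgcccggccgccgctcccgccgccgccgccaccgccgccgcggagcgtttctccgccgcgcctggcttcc
The Mstn promoter held 1 TATAAA starting 29 bases before the start, 4 CANNTG at 229, 174, 52 and 19 bases and 2 CAGAC at 244 and 120 bases. The Gdf11 promoter held 1 TATAAA at 185 bases and 1 CANNTG at 153 bases, with 0 CAGAC. The Acvr2a promoter held 1 CAGAC at 188 bases, on the other strand, and neither of the other sequences. None of these matches overlapped another. Among 32851 RefSeq promoters of the same length, 12.4% held TATAAA, 66.2% held CANNTG and 42.2% held CAGAC, so the E-box and Smad sequences are common by letters alone. GC content was 38.4% for the Mstn promoter, 81.2% for Gdf11 and 82.0% for Acvr2a. A lower GC content was found in 9.05% of all promoters for Mstn, 99.1% for Gdf11 and 99.3% for Acvr2a. The median over all promoters was 52.4%. In GC content Acvr2a was thus nearer to Gdf11 than to Mstn, the gene it moved with in D9 and D62. These 3 genes were picked for their contrast in those mice. Of the members that were low in both mice, Gdf11, Fstl1 and Smad3 had promoters above that median and Inhba had one below it. A link between base composition and the values in D9 and D62 was not tested. Outside the 3 genes shown, TATAAA was found for Inhba at 91 bases and, on the other strand, for Fstl3 at 29 bases. It was found for neither Fstl1, Acvr2b nor Smad3. Promoters were compared for 8 of the 10 members.

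Mstn was measured at 95.4, 219, 40.8 and 88.4 CPM in the robust control mice D8, D9, D11 and D98. In the robust 24h mice D57, D61, D66 and D68 it was at 73.7, 37.0, 67.3 and 81.4 CPM. Robust 24h mice all lay below the mean of the robust controls (111 ± 76.2 CPM, n = 4), but the groups overlapped through D11, the lowest control. Mean Mstn was 64.9 ± 19.4 CPM (n = 4) after running, a log2 fold change of -0.78 (SE 0.40, 95% interval -1.63 to 0.08, FDR = 0.391). Much of this difference came with mouse D9. Leaving out D9 and D62 gave -0.22 (FDR = 0.8047), whereas leaving out D11 gave -1.06 (FDR = 0.2531). In frail control mice D23, D25 and D67, Mstn was at 95, 84.0 and 70.8 CPM, and in the frail 24h mice D49, D52, D53 and D62 it was at 58.5, 68.4, 60.6 and 134 CPM. Of the frail 24h mice, D49, D52 and D53 lay below every frail control and D62 lay above all of them. Running gave a log2 fold change of -0.05 (SE 0.43, FDR = 0.995) with D62 and -0.42 (SE 0.29, FDR = 0.8553) without D9 and D62. For the interaction it was 0.72 (95% interval -0.53 to 1.98, FDR = 0.6696), and -0.20 (FDR = 0.9944) without the 2 mice.

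Gdf11, which shapes the embryonic axis and is closely related in sequence to myostatin, varied most between mice. It was at 24.3, 5.88, 10.1 and 30.8 CPM in robust control mice D8, D9, D11 and D98, and at 33.3, 13.3, 28.1 and 12.7 CPM in robust 24h mice D57, D61, D66 and D68. Frail control mice D23, D25 and D67 had 19.9, 31.5 and 17.1 CPM, and frail 24h mice D49, D52, D53 and D62 had 19.02, 22.6, 26.7 and 2.87 CPM. All groups overlapped, and the highest mouse had 11.6 times the lowest. The SD of log2 CPM over the 15 mice was 0.98, above that of 96.9% of tested genes. Over the 13 mice without D9 and D62 it was 0.55, still the highest of the members, and the highest mouse had 3.31 times the lowest. Its log2 fold change with running was 0.30 (SE 0.57, FDR = 0.8196) in robust mice and -0.36 (SE 0.61, FDR = 0.975) in frail mice, with intervals of -0.91 to 1.5 and -1.65 to 0.93. In the 13 other mice these became -0.0047 and -0.01.

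Inhba (ENSMUSG00000041324, chr13:16011851-16031621, plus strand) encodes the subunit that pairs to form activin A, and it was the least abundant member, with 50 to 167 counts per mouse. It ranged from 2.90 to 3.82 CPM in robust controls, 2.91 to 5.30 in robust 24h mice, 3.03 to 3.83 in frail controls and 1.58 to 5.61 in frail 24h mice. Both extremes were thus in the frail 24h group, D62 being the lowest and D53 the highest. The log2 fold change with running was 0.22 (SE 0.31, FDR = 0.7399) in robust mice and 0.14 (SE 0.33, FDR = 0.9803) in frail mice, and 0.17 and 0.39 without D9 and D62 (FDR = 0.8368 and FDR = 0.8449).

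**Figure D2:**
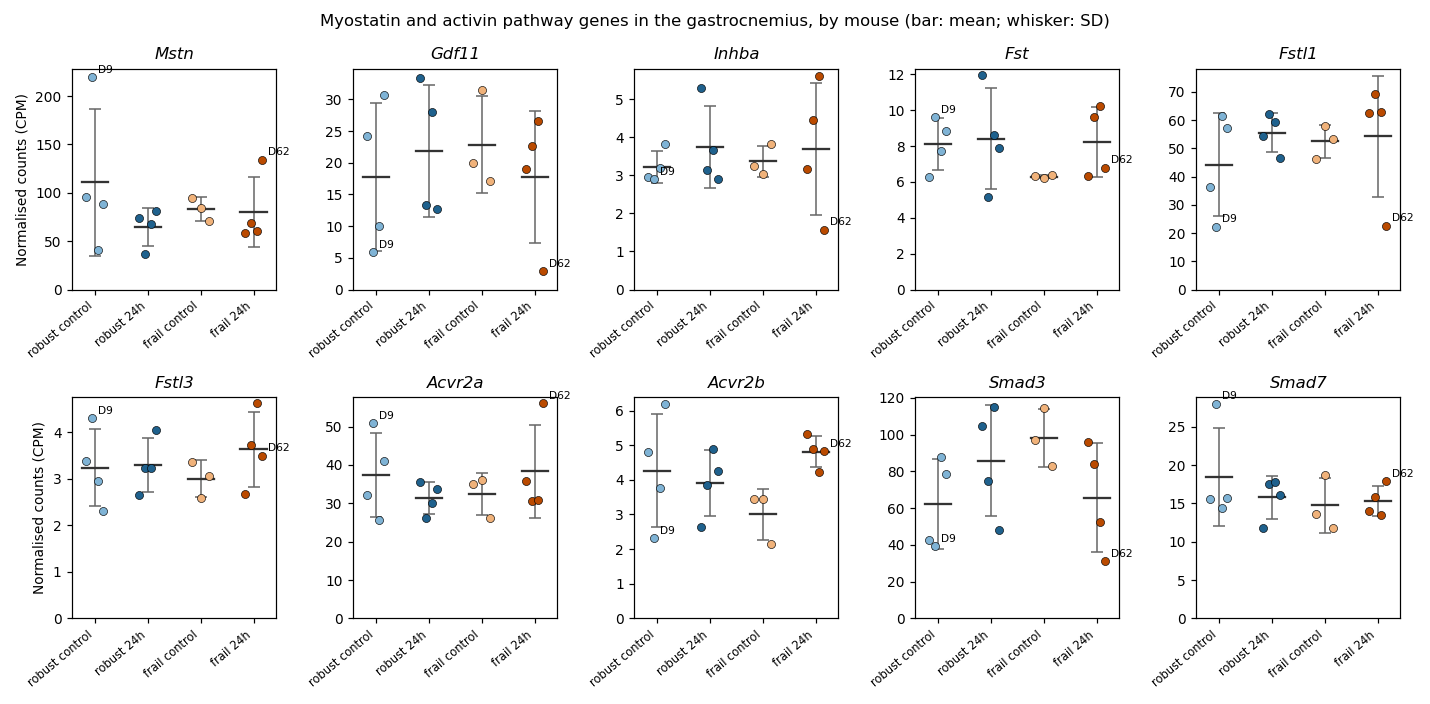
Normalised counts (CPM) of the 10 members in each of the 15 mice, by group, with the group mean (bar) and SD (whisker); axes start at 0 and mice D9 and D62 are named. Mstn is highest in D9 (219 CPM) and D62 (134 CPM), Gdf11 is lowest in the same mice, and Acvr2b in the 4 frail 24h mice lies above the 3 frail controls.

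Among the secreted inhibitors, Fst (ENSMUSG00000021765, chr13:114452290-114458951, minus strand), which binds activins and myostatin almost irreversibly, was at 6.33, 6.20 and 6.37 CPM in frail control mice D23, D25 and D67. In frail 24h mice D49, D52, D53 and D62 it was at 6.34, 9.63, 10.2 and 6.80 CPM. All 4 running mice were above the mean of the frail controls (6.30 ± 0.0867 CPM, n = 3), and the groups met only at D49. This was a log2 fold change of 0.39 (SE 0.25, 95% interval -0.15 to 0.92, FDR = 0.9562), and of 0.46 without D9 and D62 (FDR = 0.7835). Robust control mice D8, D9, D11 and D98 had 6.25, 9.60, 7.74 and 8.84 CPM and robust 24h mice D57, D61, D66 and D68 had 12.0, 5.15, 8.61 and 7.87 CPM. The robust groups overlapped throughout, with a log2 fold change of 0.05 (SE 0.23, FDR = 0.937), and 0.13 without the 2 mice (FDR = 0.8767). The tight frail controls were a feature of 3 mice, and their spread is below the 7.09% that counting alone gives for Fst on average.

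The ratio of Mstn to Fst, each per length, sets the ligand beside its inhibitor in the same mouse. It was 25.9, 38.7, 8.95 and 17.0 in robust control mice D8, D9, D11 and D98, and 10.4, 12.2, 13.3 and 17.5 in robust 24h mice D57, D61, D66 and D68. In frail control mice D23, D25 and D67 it was 25.4, 23 and 18.9, and in frail 24h mice D49, D52, D53 and D62 it was 15.6, 12.0, 10.1 and 33.5. Frail 24h mice other than D62 lay below the 3 frail controls, and the robust groups overlapped through D11, D98 and D68. Being built from values already tested singly, the ratio was given no test.

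Fstl1 (ENSMUSG00000022816, chr16:37776873-37836514, plus strand) was at 36.2, 22.3, 61.4 and 57.1 CPM in robust control mice D8, D9, D11 and D98, and at 54.4, 62.01, 59.3 and 46.6 CPM in robust 24h mice D57, D61, D66 and D68. Frail control mice D23, D25 and D67 had 46.3, 57.8 and 53.3 CPM, and frail 24h mice D49, D52, D53 and D62 had 62.4, 69.2, 62.8 and 22.6 CPM. The frail 24h mice other than D62 were above all 3 frail controls, and D62 was far below them. The log2 fold change with running was 0.33 (SE 0.31, FDR = 0.6162) in robust mice and 0.05 (SE 0.34, FDR = 0.9944) in frail mice, and without D9 and D62 it was 0.10 (SE 0.16, FDR = 0.8601) and 0.30 (SE 0.17, FDR = 0.8109). The 6 fibroblast markers, in cells known to make Fstl1, ran the same way, with summed levels of 104 CPM in D9 and 120 CPM in D62 against 217 to 637 CPM in the other mice, and 4 of the 6 were below all 13 other mice in both. Their part in the Fstl1 values was not tested. Fstl3 (ENSMUSG00000020325, chr10:79777272-79782630, plus strand), a binder of myostatin and activin in blood, ranged from 2.32 to 4.63 CPM, the least variable member over the 15 mice (SD of log2 CPM 0.28). Over the 13 mice without D9 and D62 its SD was 0.27, and Acvr2a (0.21), Smad7 (0.21) and Fstl1 (0.25) varied less. Its log2 fold change with running was 0.02 (SE 0.23, FDR = 0.9712) in robust mice and 0.28 (SE 0.24, FDR = 0.9576) in frail mice, and 0.18 and 0.29 without D9 and D62.

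Of the receptors, Acvr2b (ENSMUSG00000061393, chr9:119402118-119434995, plus strand), the type II receptor with the higher affinity for myostatin, was higher in each running frail mouse than in each sedentary one. It was at 3.44, 3.43 and 2.15 CPM in frail control mice D23, D25 and D67, and at 5.31, 4.90, 4.23 and 4.82 CPM in frail 24h mice D49, D52, D53 and D62. The groups did not overlap, as was true of 1 of 10 members and of 7.07% of all tested genes. In the other comparisons 0 of 10 members were free of overlap, beside 6.93% of genes for running in robust mice, 10.4% between the controls and 1.5% between the running groups. Mean Acvr2b was 3.01 ± 0.740 CPM (n = 3) in controls and 4.82 ± 0.445 CPM (n = 4) after running, a log2 fold change of 0.67 (SE 0.29, 95% interval 0.05 to 1.30, FDR = 0.9562). It passed the unadjusted limit of 0.05 but not the adjustment over all genes, and the values rest on 45 to 160 counts per mouse. Robust control mice D8, D9, D11 and D98 had 4.82, 2.32, 3.76 and 6.18 CPM, and robust 24h mice D57, D61, D66 and D68 had 2.65, 3.86, 4.90 and 4.26 CPM. These overlapped fully, with a log2 fold change of -0.13 (SE 0.27, FDR = 0.8428), or -0.34 (FDR = 0.6837) without D9 and D62, and the interaction was 0.80 (95% interval -0.05 to 1.64, FDR = 0.5997). The frail controls were the low group, at a log2 fold change of -0.50 (SE 0.30, FDR = 0.7043) from the robust controls, while frail 24h mice lay 0.30 (SE 0.27, FDR = 0.9994) above robust 24h mice. Without D9 and D62 the running difference in frail mice was 0.66 (FDR = 0.6575), the interaction 1.00 (FDR = 0.9835) and the difference between controls -0.71 (FDR = 0.9958).

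Acvr2a (ENSMUSG00000052155, chr2:48814109-48903269, plus strand), the first activin type II receptor to be described, held to a narrow range in 13 mice, 25.5 to 40.9 CPM, and was at 50.8 CPM in D9 and 56.1 CPM in D62. Its log2 fold change with running was -0.25 (SE 0.23, FDR = 0.5883) in robust mice and 0.24 (SE 0.24, FDR = 0.9645) in frail mice. Without D9 and D62 these were -0.08 and -0.0079, so that the opposite signs came with 1 mouse of each comparison.

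Smad3 (ENSMUSG00000032402, chr9:63646767-63757994, minus strand), which with Smad2 carries the myostatin and activin signal to the nucleus, had the lowest value of the interaction among the members. It was at 42.9, 39.3, 87.6 and 78.6 CPM in robust control mice D8, D9, D11 and D98, and at 105, 74.9, 115 and 48.3 CPM in robust 24h mice D57, D61, D66 and D68. Frail control mice D23, D25 and D67 had 97.1, 114 and 82.7 CPM, and frail 24h mice D49, D52, D53 and D62 had 95.9, 83.9, 52.2 and 31.1 CPM. All 4 frail 24h mice were below the mean of the frail controls (97.98 ± 15.7 CPM, n = 3), although D49 and D52 overlapped with them. The log2 fold change with running was 0.47 (SE 0.35, FDR = 0.5208) in robust mice and -0.58 (SE 0.37, FDR = 0.9562) in frail mice, and 0.29 and -0.35 without D9 and D62 (FDR = 0.7682 and FDR = 0.908). The interaction was -1.04 (SE 0.51, 95% interval -2.12 to 0.04, FDR = 0.5997), and -0.64 (FDR = 0.9835) without D9 and D62. Frail controls were 0.66 (SE 0.37, FDR = 0.7043) above robust controls on the log2 scale, and 0.48 (FDR = 0.9958) without the 2 mice.

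Smad7 (ENSMUSG00000025880, chromosome 18), which TGF-beta signalling itself induces as a brake, ranged from 11.8 to 18.8 CPM in 13 mice, was at 17.9 CPM in D62 and reached 27.98 CPM in D9. Its log2 fold change with running was -0.22 (SE 0.22, FDR = 0.6221) in robust mice and 0.05 (SE 0.23, FDR = 0.9898) in frail mice, and 0.04 and -0.04 without D9 and D62.

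**Figure D3:**
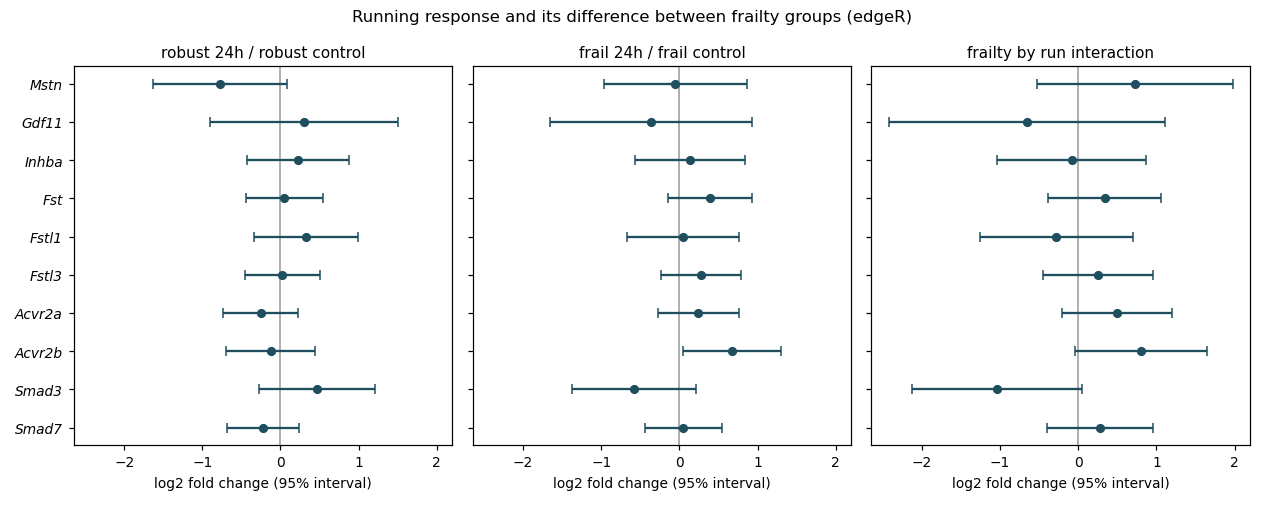
log2 fold change of each member with running in robust mice (left), with running in frail mice (middle) and their difference (right), with 95% intervals from edgeR. Every interval includes 0 except that of Acvr2b in frail mice, 0.05 to 1.30.

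Over the 10 members, the median log2 fold change was 0.04 in robust 24h against robust control mice, beside 0.02 over all tested genes, and 0.10 in frail 24h against frail control mice, beside 0.05. It was -0.16 for frail against robust controls, beside -0.02, and -0.02 for frail 24h against robust 24h mice, beside 0.01. For the interaction it was 0.26, beside 0.03. The members did not go one way in any comparison, with 6 higher and 4 lower in robust 24h mice, 7 higher and 3 lower in frail 24h mice and 6 higher and 4 lower for the interaction. Between the control groups the members lay between -0.50 (Acvr2b) and 0.66 (Smad3), with FDR between 0.7043 and 0.9653. Between the running groups they lay between -0.38 (Smad3) and 0.31 (Mstn), all with FDR = 0.9994, so that Smad3 was the highest member of one frailty comparison and the lowest of the other, without a call in either.

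Mice D9 and D62 lay together on one side of the other 13 mice for 6 of the 10 members, where 24.9% of tested genes did so. Mstn and Acvr2a were above the range of the 13 mice in both. Mstn was 3.10 and 1.90 times the median of the 13 mice in D9 and D62, and Acvr2a was 1.58 and 1.75 times that median. Gdf11, Inhba, Fstl1 and Smad3 were below the range in both, with the median of the 13 mice being 3.85 and 7.89 times the level in D9 and D62 for Gdf11, 2.59 and 2.56 times for Fstl1 and 2.14 and 2.7 times for Smad3. For Inhba the step was small in D9 (2.90 CPM, beside a lowest value of 2.91 in the other mice) and larger in D62 (1.58 CPM). Fst and Fstl3 stayed within the range of the other mice, while Acvr2b did so as well and Smad7 was outside it in D9 only. The summed satellite cell markers were 53.2 CPM in D9 and 82.8 CPM in D62, beside 39.8 to 51.4 CPM. This sum was mostly Cdh15 (46.2 and 71.8 CPM, beside 28.8 to 43.4 CPM), and of the 5 genes 2 were above and 2 below all other mice in both, the latter including Pax7, the defining marker (0.911 and 0.756 CPM, beside 1.56 to 3.35 CPM). The summed muscle fibre markers were at 119600 and 105200 CPM, beside 119200 to 168500 CPM. Summed Schwann cell markers were at 103 and 289 CPM beside 65.6 to 180 CPM. In both mice the endothelial, macrophage, adipocyte, tendon and red blood cell sums were inside the range of the others. Single markers within these lists were not. Pecam1 was above all other mice in both (106 and 109 CPM, beside 63.6 to 92.2 CPM), and Emcn, Retn and Tnmd were below them in both. No macrophage or red blood cell marker lay on one side of all other mice in both. The part of these cell markers in the members' values was not tested.

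**Figure D4:**
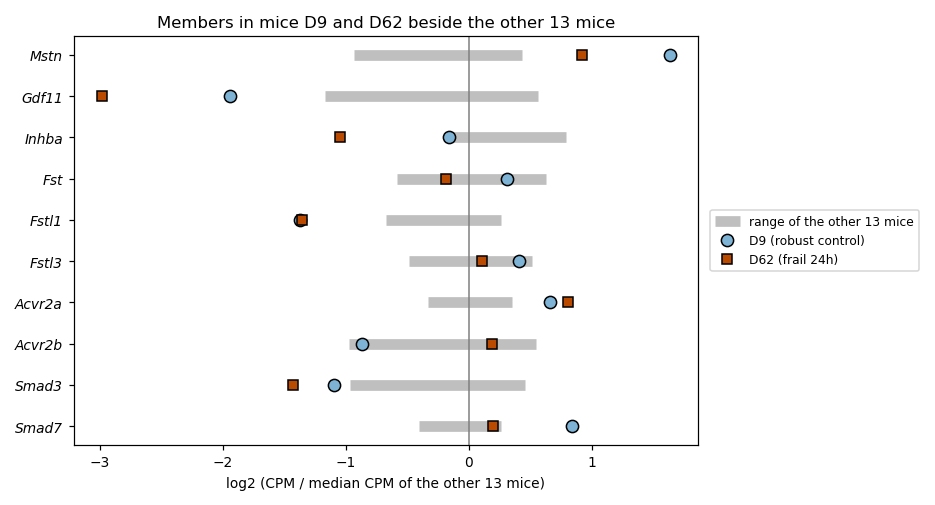
Members in mice D9 (circles) and D62 (squares) as log2 of their CPM over the median of the other 13 mice, with the range of those 13 mice as grey bars. Mstn and Acvr2a lie right of the bar in both mice, and Gdf11, Inhba, Fstl1 and Smad3 lie left of it, with Gdf11 farthest at -1.94 and -2.98.

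How members varied with one another depended on these 2 mice. Over 15 mice, the Pearson r of log2 CPM was 0.843 between Mstn and Acvr2a and -0.843 between Mstn and Fstl1, and over the 13 mice it was 0.701 and -0.615. Mstn and Gdf11 gave -0.389 over 15 mice and 0.587 over 13, so the sign turned. Inhba and Fst, an activin subunit and the inhibitor of activin, gave 0.575 and 0.806. These values describe 15 libraries that share groups and the 2 mice apart, and are given without a test.

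The genes whose pattern was most like that of Mstn among all tested genes were Prpf19 (r = 0.922 over 15 mice and 0.835 over 13), Oser1 (0.911 and 0.767), Mospd1 (0.910 and 0.831), Arntl (0.910 and 0.764) and Gtdc1 (0.905 and 0.825). Prpf19 is a splicing factor and Arntl a core transcription factor of the circadian clock. Gdf11 was most like Myl1 (0.928 and 0.698), a fast myosin light chain, and Scara3 (0.926 and 0.775). Fstl1 was most like Cd34 (0.967 and 0.881), a surface protein of endothelial and fibro-adipogenic cells, and Fndc1 (0.966 and 0.893). Acvr2a was most like the imprinted gene Peg3 (0.925 and 0.775) and the ubiquitin ligase Nedd4l (0.925 and 0.834), and Smad3 most like Slc41a3 (0.919 and 0.834) and Lypd6 (0.918 and 0.839). For Inhba these were P3h3 (0.863 and 0.760) and Sod3 (0.855 and 0.703), for Fst Mfap2 (0.851 and 0.838) and Arf4 (0.779 and 0.774), and for Fstl3 Sars (0.886 and 0.877) and Erf (0.871 and 0.865). For Acvr2b they were Dlg3 (0.827 and 0.827) and the antisense RNA Gm16008 (0.803 and 0.811), and for Smad7 Arid3a (0.891 and 0.716) and Trub1 (0.886 and 0.765). Each gene was picked for the highest r among 16920 genes, as a description only.

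The rest of the pathway was read from 84 further genes, of which 76 were tested and 0 were called by edgeR at an FDR of 0.1 in any comparison. In robust 24h against robust control mice, 3 were higher and 11 lower at an unadjusted p under 0.05 (18.4% of the 76, beside 13.4% of all genes), and without D9 and D62 these numbers were 3 and 5 (7.33% of all genes). The lower genes lay among receptors and co-receptors (3 of 12 tested) and Smads and intracellular regulators (4 of 20). The BMP targets held 2 of the higher genes, out of 8 tested. The median log2 fold change of these 8 was 0.09, beside 0.02 over all tested genes. In frail 24h against frail control mice, 2 were higher and 1 lower (3.95%, beside 5.18%), and without D9 and D62 these were 3 and 3 (6.85% of all genes). For the interaction 7 were higher and 1 lower (10.5%, beside 7.93%), but 0 and 1 without the 2 mice (4.42% of all genes). Between the control groups 3 were higher and 7 lower in frail mice (13.2%, beside 5.86%), against 4 and 4 without the 2 mice (3.8% of all genes). Between the running groups 0 passed (2.51% of all genes). Without the 2 mice 2 were higher and 0 lower (2.73%), which were Lox and, named after its values were seen, the ligand gene Gdf10. The genes named below, apart from those of the interaction and Acvr1b, were picked from listed genes whose groups did not overlap. For running in robust mice, 5 of the 76 did not overlap, beside 6.93% of all genes. In frail mice 6 did not, beside 7.07%. Between the control groups 6 did not, beside 10.4%, and between the running groups 2 did not, beside 1.5%.

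Id2, which encodes an inhibitor of basic helix-loop-helix factors and is a target of the BMP branch, had the smallest p among the listed genes in both running comparisons. It was at 5.16, 4.39, 4.78 and 4.59 CPM in robust control mice D8, D9, D11 and D98, and at 7.53, 8.18, 7.20 and 5.51 CPM in robust 24h mice D57, D61, D66 and D68. In frail control mice D23, D25 and D67 it was at 3.09, 4.47 and 2.49 CPM, and in frail 24h mice D49, D52, D53 and D62 at 6.38, 6.78, 4.84 and 4.85 CPM. Running mice were above sedentary mice in both frailty groups. Id2 was named because these groups did not overlap, so the lack of overlap is not a separate result. It was shared by 6.93% of all tested genes in robust mice and by 7.07% in frail mice. Running gave a log2 fold change of 0.59 (SE 0.20, FDR = 0.3576) in robust mice and 0.76 (SE 0.22, FDR = 0.9562) in frail mice. In the 13 other mice it was 0.55 (FDR = 0.65) and 0.83 (FDR = 0.4308).

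Smad4, the common partner of the receptor-activated Smads, and Smad5, a Smad of the BMP branch, were lower in each robust 24h mouse than in each robust control. Smad4 was between 44.3 and 51.5 CPM after running and between 53.5 and 99.7 CPM in controls, with a log2 fold change of -0.50 (SE 0.20, FDR = 0.3576). For Smad5 the ranges were 25.0 to 32.5 and 34.5 to 68.6 CPM, with a log2 fold change of -0.59 (SE 0.21, FDR = 0.3576). Mouse D9 was the highest control for both, and without D9 and D62 the log2 fold changes were -0.27 and -0.28 (FDR = 0.65 for both). Acvr1b, a type I receptor for activin and myostatin, is named after its values were seen. Its log2 fold change with running was -0.99 (SE 0.41, FDR = 0.3576) in robust mice and 0.08 (SE 0.44, FDR = 0.9917) in frail mice. Without D9 and D62 these were -0.55 (FDR = 0.65) and -0.49 (FDR = 0.7841).

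In frail 24h against frail control mice, Ppm1a, a phosphatase of Smads, was lower without overlap (log2 fold change -0.25, SE 0.12, FDR = 0.9562), and Thbs1, an activator of latent TGF-beta, was higher without overlap (0.79, SE 0.51, FDR = 0.9562). The lowest p of the interaction belonged to the co-receptor and receptor genes Tgfbr3 (0.89) and Bmpr1b (0.96) and to Lox, a collagen cross-linking enzyme (1.84), each with FDR = 0.5997. All of these were highest in mouse D9, and without D9 and D62 the values were 0.39, 0.46 and 0.99 (FDR = 0.9835 for each). Between the running groups, Lox (0.92) and Tgfbr3 (0.35) were higher in frail mice without overlap, each with FDR = 0.9994. Between the control groups, 6 of the 76 listed genes did not overlap, beside 10.4% of all genes. Among these, frail mice had more Runx2 (0.80) and more Hfe2, a BMP co-receptor of muscle (0.59). They had less of the type I receptor Tgfbr1 (-0.47), with FDR = 0.7043 for each gene. Without D9 and D62 these were 0.65, 0.35 and -0.28 (FDR = 0.9958 for each).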

How the data were processed

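Gastrocnemius polyA RNA of 15 mice was analysed, in 4 robust control, 4 robust 24h, 3 frail control and 4 frail 24h libraries. The authors used STAR 2.7.9a for alignment to mm10, and counted uniquely aligned proper pairs on the sense strand of Ensembl genes with featureCounts; the deposited counts are whole numbers without normalization and leave out mitochondrial genes. A second deposited table, a transformation of the same counts, was not used. Names, positions and exon lengths came from GENCODE M21 (GRCm38), which named 55104 of 55450 genes, and promoters from RefSeq (GRCm38.p6).

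Genes were kept by filterByExpr, scaled by TMM factors and passed to edgeR 4.0.16 (R 4.3.3) for its quasi-likelihood test on all 15 mice with 1 mean per group, with Benjamini-Hochberg adjustment over 16920 genes and an FDR of 0.1. CPM used TMM library sizes. Alternatives were RLE factors, no filter, DESeq2 1.42.0, limma 3.58.1 voom with quality weights, only the groups compared, length and GC offsets (loess, span 0.3) and leaving out each mouse; leaving out D9 and D62 together was chosen after seeing the data. Of these fits, the main edgeR fit was tested on simulated data. The members and gene lists were chosen with earlier results of these data known. Named beside the members were listed genes called or, up to 3 per comparison, with the smallest p among those without overlap (for the interaction, the smallest p), and the genes most like each member by r (5 for Mstn, 2 for each other member). FDR is the adjusted p of that test, two-sided. Counts per mouse of the members ran from 45 to 5297, and the labels give no batch.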

Additional observations from a re-analysis of the deposited data

Results flagged for a closer look

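Within the groups of 4 mice, 30 sets of values (10 members in 3 groups) were searched for a mouse whose gap to the others is unusually large for the range of its group on the log2 CPM scale, and 3 were found. Chance alone gives about 1 in 20. Gdf11 was at 2.87 CPM in frail 24h mouse D62, where the other 3 mice lay between 19.02 and 26.7 CPM. Fstl1 was at 22.6 CPM in the same mouse, where the others lay between 62.4 and 69.2 CPM. Smad7 was at 27.98 CPM in robust control mouse D9, where the others lay between 14.4 and 15.8 CPM. On the CPM scale, a choice made after seeing the data, the same search also found 3, with Mstn in D62 (134 CPM, the others between 58.5 and 68.4 CPM) in place of Gdf11. These are the 2 mice that stood apart over many genes, and summed fibroblast markers were 104 CPM in D9 and 120 CPM in D62 beside 217 to 637 CPM in the other mice. Of the 6 markers, 4 were below all other mice in both, while Ly6a was inside their range in both and Pdgfra in D9. The part of the fibroblast markers in these values was not tested.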

How the results depend on the processing

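No member was called in any alternative count of members (0 in all 79 counts), and the lowest FDR of a member was 0.2089, for Acvr2b in frail 24h against frail control mice under voom with quality weights. No paired analysis was possible because the labels give each mouse a number of its own, and no number is shared between groups. A fit to only the groups compared was not made for the interaction, which needs all groups. Over all genes, edgeR without the count filter called 86 genes in robust 24h against robust control mice, 19 in frail 24h against frail control mice, 4 for the interaction, 0 between controls and 6 between running groups, DESeq2 called 10, 15, 0, 0 and 0, and voom called 45 in frail 24h against frail control mice, while RLE factors, length and GC offsets and the fit to the groups compared called 0. Of the log2 fold changes recomputed with all mice or without D9 and D62, 313 kept their sign and 27 turned, and with 1 mouse left out 409 kept it and 41 turned. None that turned was called, and the cause was not tested. Under voom the values that turned were Fst -0.0085, Smad7 0.076 (robust 24h against robust control), Mstn -0.046, Inhba 0.092, Fstl1 0.062 (the interaction), Mstn 0.22, Fstl3 0.055 (frail against robust control), Inhba 0.12, Fst 0.14, Fstl1 0.12 (frail 24h against robust 24h). With length and GC offsets the values that turned were Fstl3 -0.10 (robust 24h against robust control), Fstl1 -0.0003 (frail 24h against frail control). In the 13 mice other than D9 and D62 the values that turned were Gdf11 -0.0047, Smad7 0.041 (robust 24h against robust control), Acvr2a -0.0079, Smad7 -0.038 (frail 24h against frail control), Mstn -0.20, Inhba 0.22, Fstl1 0.20, Smad7 -0.079 (the interaction), Mstn 0.15, Fstl3 0.051 (frail against robust control), Mstn -0.056, Gdf11 0.057, Inhba 0.23, Fst 0.055, Fstl1 0.22 (frail 24h against robust 24h). With 1 mouse left out, the ranges that crossed 0 were Fst -0.17 to 0.22, Gdf11 -0.0041 to 0.70, Smad7 -0.33 to 0.041, Fstl3 -0.11 to 0.18, Acvr2b -0.34 to 0.11 (robust 24h against robust control), Mstn -0.42 to 0.069, Fstl1 -0.098 to 0.30, Smad7 -0.084 to 0.26, Inhba -0.14 to 0.38, Acvr2a -0.0076 to 0.33 (frail 24h against frail control), Inhba -0.36 to 0.17 (the interaction), Mstn -0.70 to 0.15, Fstl3 -0.24 to 0.050, Inhba -0.035 to 0.16 (frail against robust control), Inhba -0.29 to 0.23, Fst -0.20 to 0.20, Fstl1 -0.18 to 0.22, Smad7 -0.16 to 0.017, Mstn -0.057 to 0.44, Gdf11 -0.56 to 0.056 (frail 24h against robust 24h). The number of mice limits what could be seen, with an interval of -1.65 to 0.93 for Gdf11 in frail mice, as do the low counts of Acvr2b and Inhba.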
